A study of Mus musculus with 4 samples.

Results

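Glypicans and syndecans are the main families of cell-surface proteins that carry heparan sulfate, a long sulfated sugar chain. Glypicans (Gpc) are held in the membrane by a lipid anchor and syndecans (Sdc) by a transmembrane segment. Their chains bind growth factors such as FGFs, GDNF, Hedgehog and Wnt proteins and present them to signalling receptors. Syndecans also take part in vesicle formation through the adaptor syntenin (Sdcbp), and heparan sulfate on recipient cells can capture extracellular vesicles (EVs). In the testis, GDNF acts on spermatogonial stem cells through Ret and its co-receptor Gfra1. Here the 9 members were the genes Gpc1, Gpc2, Gpc3, Gpc4, Gpc6, Sdc1, Sdc2, Sdc3 and Sdc4, that is 5 glypicans and 4 syndecans of 32285 genes in the count tables. A further glypican, Gpc5, was not a member and is counted among the other carriers. The set was drawn up around Gpc3, which was picked because its level was high in the germ cells of an EV library. That difference is therefore a description here and carries no test.

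The values came from single-cell RNA sequencing of primary spermatogonial cultures. Thy1-selected cells from 3 male mice at postnatal day 6 were grown on STO cells, a mouse embryonic fibroblast line used as a feeder layer, in medium with GDNF and basic FGF. Cultures received PBS (vehicle) or EVs from postnatal day 7 mouse testes at 1 µg/mL for 3 days, and the study named 2 biological replicates per arm. Counts of vehicle 1, vehicle 2 and EV 1 were used, while the expression of EV 2 was not analysed here, so the EV arm rested on 1 library.

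After filtering, vehicle 1, vehicle 2 and EV 1 kept 8263, 8637 and 4779 cells with 21248778, 24073818 and 10024458 UMIs (unique molecular identifiers, 1 per captured RNA molecule). Any pair of libraries, EV 2 included, shared 11 to 22 cell barcodes. Cells were split by 4 germ cell genes (Dazl, Tex15, Stk31, Epcam) against 4 fibroblast genes (Col1a1, Col1a2, Sparc, Dcn), none of them a member. This gave 4421, 4780 and 226 germ cells (53.5%, 55.3% and 4.73% of cells) and 2346, 2477 and 2510 feeder cells. The rest, 18.1%, 16.0% and 42.7% of cells, met neither rule. EV 1 stood apart in all 3 shares, and its germ cells held only 324434 UMIs, against 9455720 and 11063898 in the vehicle libraries. All 6 germ cell markers that the split did not use were called higher in germ cells, and all 9 fibroblast markers tested were called lower. Levels are given as CPM, the UMIs of a gene per 1000000 UMIs of the class. They are not corrected for gene length, so a level is compared between cells and not between genes. Intervals are 95% and cover counting error only.

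Gpc3 and Gpc4 lie next to each other on the X chromosome, on the same strand, with 107.2 kb and no annotated gene between them (GENCODE M21, GRCm38). Gpc3 spans chrX:52272426-52613950 and Gpc4 chrX:52053021-52165252, both on the minus strand. Although neighbours, they differed in direction, since Gpc3 was higher in germ cells and Gpc4 in feeder cells. Their promoters are therefore shown, as the 250 bases before the RefSeq start (GRCm38.p6), 5′ to 3′ on the gene's strand, with each GC box (GGGCGG or its reverse complement CCGCCC, searched on both strands) in capitals. The Gpc3 window is chrX:52613975-52614224 and the Gpc4 window chrX:52164924-52165173. The Gpc3 window lies upstream of the GENCODE span given above. The Gpc4 window lies inside its GENCODE span, because the RefSeq start used here is further downstream, so the windows are not equally placed.
Gpc3: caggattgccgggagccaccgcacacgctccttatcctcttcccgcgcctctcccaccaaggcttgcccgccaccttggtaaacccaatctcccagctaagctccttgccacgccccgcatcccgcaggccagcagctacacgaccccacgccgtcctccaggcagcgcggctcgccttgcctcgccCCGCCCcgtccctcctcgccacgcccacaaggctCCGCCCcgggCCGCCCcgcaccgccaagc
Gpc4: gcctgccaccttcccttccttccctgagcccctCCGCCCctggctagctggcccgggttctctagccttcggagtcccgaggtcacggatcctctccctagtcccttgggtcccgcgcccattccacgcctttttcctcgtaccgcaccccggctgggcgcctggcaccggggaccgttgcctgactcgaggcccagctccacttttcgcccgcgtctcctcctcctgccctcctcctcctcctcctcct
The Gpc3 window held 3 GC boxes and 25 CpG dinucleotides, and the Gpc4 window 1 GC box and 18 CpG. Neither held TATAAA on either strand. Of 32851 promoters of the same length, 32.7% held a GC box and 12.4% held TATAAA, and the median promoter had 6 CpG. Both windows are thus GC-rich (71.6% and 68.4% G or C against a median of 52.4%). RefSeq promoters matched 6 of the 9 members, and all 6 held a GC box. These letters are a description and do not show binding. Of the other members, Gpc1 lies at chr1:92831645-92860779, Gpc2 at chr5:138273655-138280005, Sdc1 at chr12:8771323-8793715, Sdc2 at chr15:32920723-33034935, Sdc3 at chr4:130792537-130826319 and Sdc4 at chr2:164424247-164443887, and Gpc6 is placed where it is described. Gpc1 (Gm29481, Gm29480 and Ankmy1), Gpc3 (Gm14582 and A630012P03Rik) and Sdc3 (Gm12970 and Gm26716) overlap counted genes on the opposite strand.

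The first question was in which cells each member was expressed. Germ and feeder sums of each library were compared with edgeR's quasi-likelihood test, with the library as a block and Benjamini-Hochberg adjustment over 15659 genes. Of the 9 members, all tested, 2 were called higher in germ cells (Gpc2 and Gpc3) and 6 lower (Gpc1, Gpc4, Gpc6, Sdc1, Sdc2 and Sdc3). Among all genes tested, 40% were called higher and 41.6% lower, so a call in either direction was the common outcome of this contrast. The p-values measure the spread between these 3 libraries only.

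**Figure D1:**
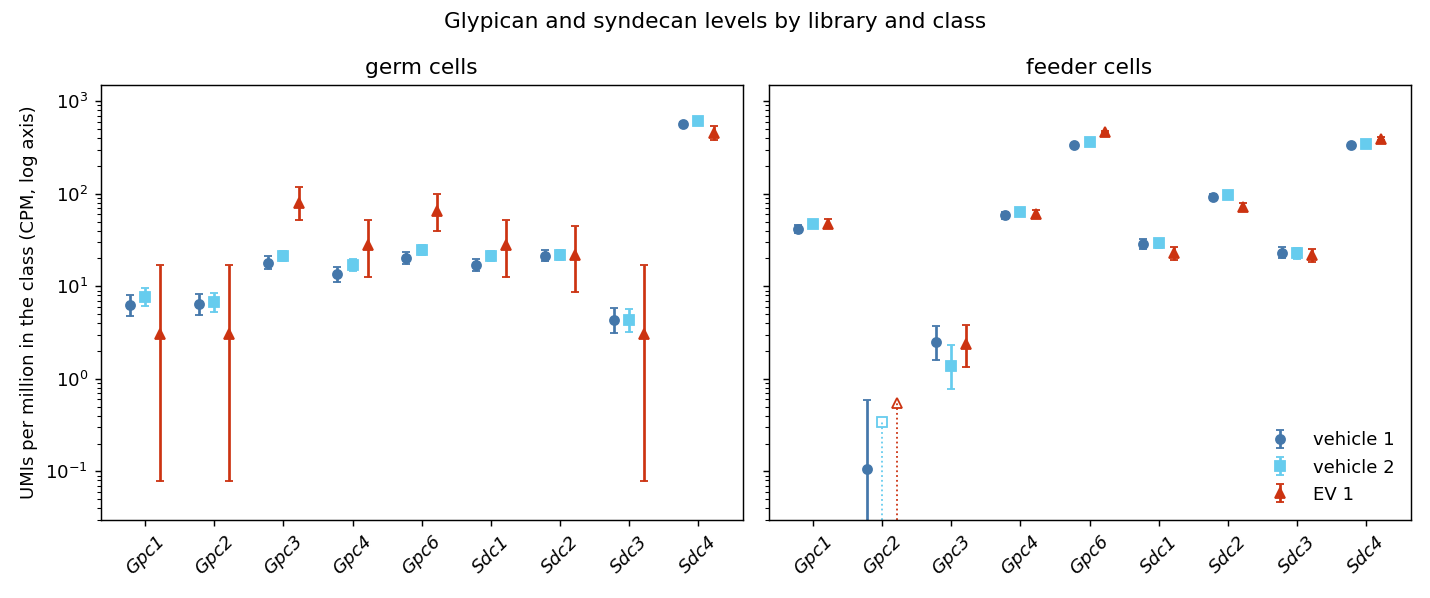
Levels of the 9 members in germ cells (left) and feeder cells (right), in CPM on a log axis, for vehicle 1 (circles), vehicle 2 (squares) and EV 1 (triangles). Bars are 95% exact Poisson intervals, and open markers on dotted lines are upper limits of libraries without a UMI; Gpc3 and Gpc6 of EV 1 stand above both vehicle libraries in germ cells.

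Gpc3 is a glypican best known from embryonic growth control and from liver tumours. Germ cells of EV 1 had 80.1 CPM (26 UMIs), those of vehicle 1 had 18.1 CPM (171 UMIs) and those of vehicle 2 had 21.3 CPM (236 UMIs). In feeder cells it was 2.53 CPM in vehicle 1 (24 UMIs), 1.39 CPM in vehicle 2 (15 UMIs) and 2.35 CPM in EV 1 (16 UMIs). Every germ cell value lay above every feeder cell value. In order, EV 1 germ cells came first (interval 52.3 to 117), then vehicle 2 (18.7 to 24.2) and vehicle 1 (15.5 to 21.0), whose intervals overlapped, and then the feeder cells, whose intervals overlapped as well. The log2 fold of germ over feeder cells was 3.33 ± 0.24 (SE, edgeR adjusted p = 2.31e-10). Because EV 1 had chosen this gene, the fold was also taken from the vehicle libraries alone, where it was 2.96 ± 0.20 (adjusted p = 3.72e-15).

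Gpc2, a glypican of the developing nervous system, showed the widest gap. Germ cells held 61, 75 and 1 UMIs in vehicle 1, vehicle 2 and EV 1, at 6.45, 6.78 and 3.08 CPM. Feeder cells held 1 UMI in vehicle 1 and none in vehicle 2 or EV 1. Pooled over the 3 libraries, the germ level was 178 times the feeder level, with an interval of 31.4 to 7080 because the feeder count was 1. The fitted log2 fold was 6.42 ± 0.59 (edgeR adjusted p = 7.24e-09), a value that depends on how so low a count is handled. Gpc2 overlaps another annotated gene on the same strand (Gm43720), so that its reads may not all be its own.

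Gpc6, the glypican mutated in a skeletal dysplasia of short limbs, had the reverse pattern. Feeder cells had 335, 360 and 465 CPM in vehicle 1, vehicle 2 and EV 1, and germ cells had 20.4, 24.9 and 64.7 CPM. The lowest feeder value exceeded the highest germ value, and the log2 fold was -4.19 ± 0.18 (adjusted p = 1.37e-13). Gpc6 is a very long gene (1051.2 kb at chr14:116925315-117976544).

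Gpc4, which regulates FGF and Wnt responses in stem cells, had 58.6, 62.8 and 60.5 CPM in feeder cells. Its germ cell levels were 13.4, 16.9 and 27.7 CPM in the same order. The classes did not overlap, with a log2 fold of -2.33 ± 0.11 (adjusted p = 2.69e-13). Gpc1, a glypican of many tissues that binds FGF2, had 41.5, 47.0 and 47.5 CPM in feeder cells and 6.24, 7.68 and 3.08 CPM in germ cells, the last from 1 UMI. Its log2 fold was -3.04 ± 0.13 (adjusted p = 1.00e-13).

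Among the syndecans, Sdc2 is the typical form of fibroblasts. Feeder cells had 92.4, 98.2 and 72.2 CPM of Sdc2 in vehicle 1, vehicle 2 and EV 1, and germ cells had 21.5, 21.8 and 21.6 CPM. The germ values were nearly equal in the 3 libraries, and the log2 fold was -2.49 ± 0.10 (adjusted p = 5.48e-14). Sdc3, the syndecan of neurons and muscle precursors, had 23.2, 22.6 and 21.8 CPM in feeder cells and 4.34, 4.34 and 3.08 CPM in germ cells (log2 fold -2.76 ± 0.15, adjusted p = 4.20e-12). Both classes were apart in every library.

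Sdc1, the typical syndecan of epithelia and plasma cells, differed least among the members called. Feeder cells had 28.6, 29.0 and 22.8 CPM and germ cells 17.0, 21.3 and 27.7 CPM. The classes overlapped, since the germ value of EV 1, from 9 UMIs, was above its feeder value. The log2 fold was -0.92 ± 0.12 (adjusted p = 6.87e-07), and without vehicle 1 it was -0.70 with an adjusted p of 0.0557 (adjusted p over all alternatives from 9.82e-13 to 0.0557).

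Sdc4, the syndecan of focal adhesions, was the member with the most UMIs in germ cells. It had 574, 604 and 456 CPM in germ cells and 333, 347 and 393 CPM in feeder cells of vehicle 1, vehicle 2 and EV 1. On this scale the germ level was 1.73, 1.74 and 1.16 times the feeder level, and the interval of EV 1 (0.978 to 1.37) included 1. The test, which scaled the sums by TMM (trimmed mean of M values), gave a log2 fold of 0.16 ± 0.18 (adjusted p = 0.394), so Sdc4 did not pass. With the vehicle libraries alone the fold was 0.40 ± 0.04 and did pass (adjusted p = 1.14e-10), and without vehicle 1 or vehicle 2 it was -0.02. Sdc4 was thus called only when EV 1 was left out, and the sign turned when either vehicle library was left out.

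**Figure D2:**
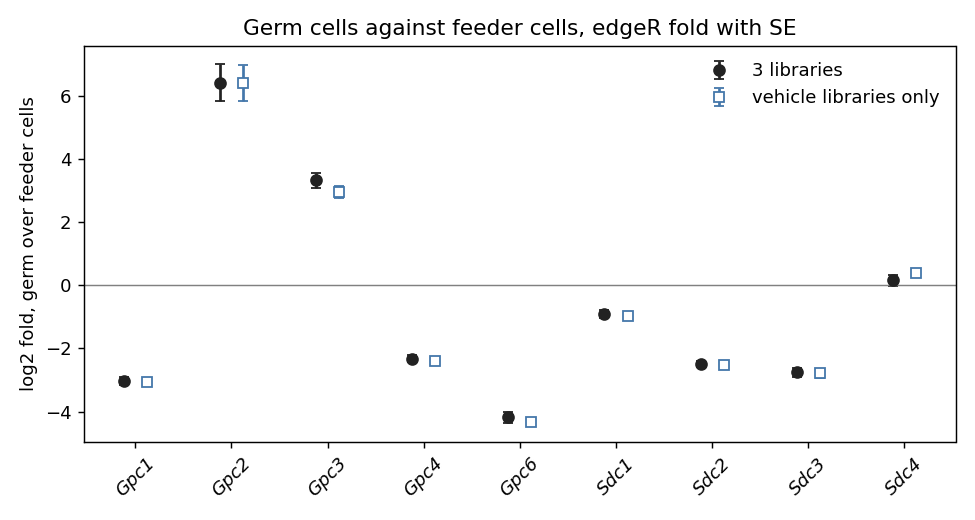
Log2 fold of germ over feeder cells for each member from edgeR, with its SE, for all 3 libraries (filled circles) and the 2 vehicle libraries (open squares). Gpc2 and Gpc3 lie above 0 and the other glypican members below, and Sdc4 is the member that moves across the threshold when EV 1 is left out.

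RNA from broken cells can enter droplets, so low levels were set against markers of the other class. The source of such transcripts was not measured. The fibroblast markers not used by the split had 247, 220 and 345 CPM in germ cells of vehicle 1, vehicle 2 and EV 1, which is 10.99%, 9.54% and 17.3% of their feeder level. Fn1 held the most UMIs of these markers in each library. The 8 single markers with at least 50 UMIs in feeder cells ranged from 3.01% to 61.5%, so the sum is not a measured level of free RNA. The other 2 were too sparse for a share (Lum at 0 UMIs in germ cells, and Postn on 2 UMIs in germ and 9 in feeder cells of EV 1). Gpc6 in germ cells was at 6.09%, 6.91% and 13.9% of its feeder level, below the summed markers but above the lowest of the 8, Col5a2 (3.804%, 3.01% and 6.83%), in each library. How much of the Gpc6 in germ cells came from other cells was not tested. Gpc1, at 15.0%, 16.3% and 6.49%, and Sdc3, at 18.7%, 19.2% and 14.2%, lay above the marker sum in both vehicle libraries and below it in EV 1, where each had 1 UMI. Gpc4 and Sdc2 stood at 22.2% to 45.9% and Sdc1 at 59.5% to 122%. In the other direction, germ cell markers in feeder cells were at 3.08%, 2.51% and 0.690% of their germ level, and Gpc3 in feeder cells at 14.0%, 6.52% and 2.94% of its own.

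The share of cells with a UMI was compared next. Each cell was thinned to 1000 UMIs, because feeder cells were deeper (medians of 3620.5, 3899 and 2447.5 UMIs) than germ cells (1936, 2098.5 and 1325). Gpc3 was seen in 10.7% of EV 1 germ cells (Wilson interval 6.94 to 16.1), in 2.10% of those of vehicle 2 (1.73 to 2.55) and in 1.78% of those of vehicle 1 (1.42 to 2.22). In feeder cells the shares were 0.258% in EV 1, 0.248% in vehicle 2 and 0.0885% in vehicle 1. Without thinning, in the order vehicle 1, vehicle 2 and EV 1 used from here on, they were 3.73%, 4.41% and 10.2% of germ cells and 0.810%, 0.565% and 0.478% of feeder cells. Thinning left out 147, 112 and 48 germ cells, so that 178 were compared in EV 1. Sdc1 was seen in 1.94%, 2.27% and 0.562% of germ cells and 2.83%, 3.26% and 1.89% of feeder cells. The germ value of EV 1 was 1 cell of 178 (interval 0.0992 to 3.11) and 3.98% unthinned, so no order of the classes can be read from it. Sdc4 was seen in 40.3%, 42.3% and 34.3% of germ cells and 26.8%, 26.9% and 30.9% of feeder cells. Gpc6 was seen in 26.4%, 28.2% and 32.1% of feeder cells and 1.68%, 1.95% and 5.06% of germ cells. Gpc2 was seen in 0.655%, 0.664% and 0.562% of germ cells and, thinned, in 0 of 2324 feeder cells of EV 1, which allows a share of up to 0.129% (3 cells) with a UMI at this thinned depth.

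**Figure D3:**
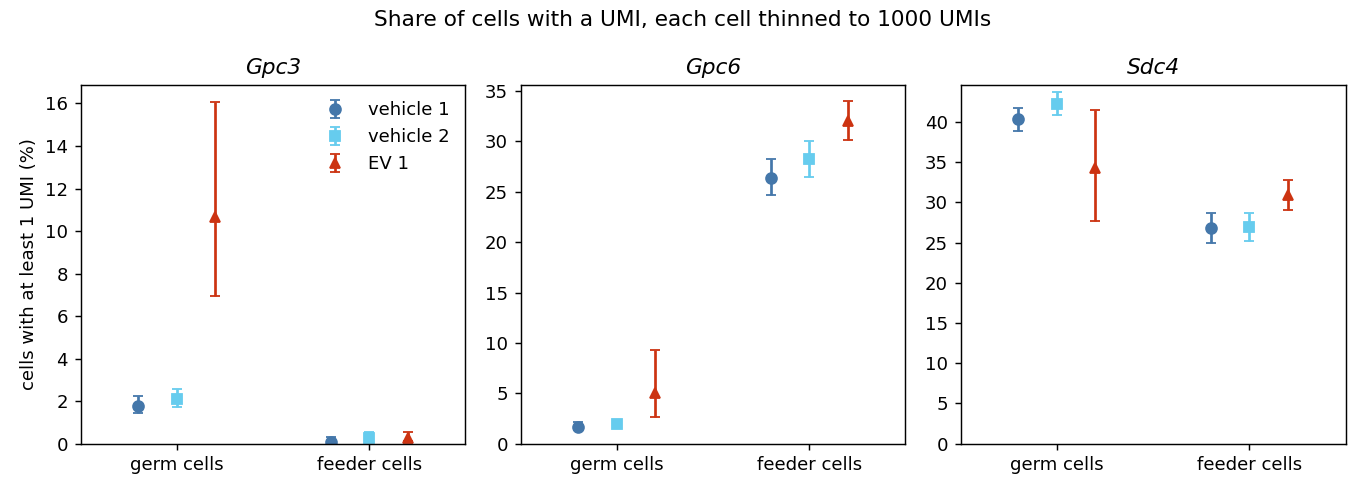
Share of cells with at least 1 UMI of Gpc3, Gpc6 and Sdc4, in percent, after thinning each cell to 1000 UMIs, by class and library. Bars are 95% Wilson intervals; the Gpc3 share in germ cells of EV 1 (10.7%) stands above those of both vehicle libraries.

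The second question was how the members differed between EV-treated and vehicle cultures. With 1 EV library this has no replicate check and no test was made. A gene counted as past the fold on 2 conditions. Its EV 1 level had to differ from the mean of both vehicle libraries by a log2 ratio of at least 1 in size, and the step from EV 1 to the nearer vehicle library had to exceed the step between those libraries. In germ cells, 2 members were past the fold and higher (Gpc3 and Gpc6) and 0 lower. Of 13366 genes with at least 50 UMIs, 11.5% were past the fold and higher and 6.7% lower, and read against so large a background the count of 2 is no result about the family. Under TMM scaling, which shifted the median gene by -0.38, the split of all genes turned from 1541 higher and 895 lower to 767 higher and 1807 lower.

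The Gpc3 level of EV 1 germ cells was 4.04 times that of the pooled vehicle libraries (interval 2.61 to 6.01), a log2 ratio of 2.05 to a vehicle mean of 19.7 ± 2.30 CPM (SD, n = 2). This is the value that chose the gene. Its 26 UMIs came from 23 of 226 cells, with at most 2 UMIs in a cell. The 23 cells had 630 CPM of the germ cell markers and 300 CPM of the fibroblast markers, against 498 and 350 CPM in the other germ cells of EV 1. Since feeder cells of EV 1 held 2.35 CPM of Gpc3, the level in germ cells was 34.0 times that of the feeder cells in the same library (interval 17.6 to 67.9). Cells of EV 1 that met neither rule had 8.61 CPM.

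Gpc6 in germ cells of EV 1 was 2.84 times the pooled vehicle level (1.74 to 4.39), but 8 of its 21 UMIs came from 1 cell. The 14 cells with Gpc6 had 226 CPM of germ cell markers and 753 CPM of fibroblast markers, against 537 and 309 CPM in the other germ cells of EV 1. When each library was taken without the cell that held the most UMIs of the member, the log2 ratio of Gpc6 fell from 1.55 to 0.96. The interval of its ratio to the pooled vehicle level was then 0.983 to 3.22, which included 1. For Gpc3 the log2 ratio went from 2.05 to 1.96. That is no support, since this value chose the gene and the step was chosen after seeing the data. The summed fibroblast markers in germ cells also stood higher in EV 1 (345 CPM against 247 and 220), but 74 of their 112 UMIs were Fn1 (228 CPM against 134 and 119). Of the 6 fibroblast markers with at least 50 UMIs, Col3a1 alone was past the fold. Their median log2 ratio was 0.07, against 0.09 for all genes. The summed markers of Sertoli cells (83.2 CPM in EV 1 against 49.5 and 38.9), endothelial cells (27.7 against 18.4 and 19.3) and macrophages (18.5 against 6.56 and 7.23) stood higher too, on 27, 9 and 6 UMIs. Of these, Amh, Gata4, Cldn11, Kdr, Emcn, Adgre1, Lyz2 and Ptprc were at 0 in EV 1. The part of these markers in the Gpc6 value was not tested.

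The other members were not past the fold in germ cells. Gpc4 was 1.81 times the vehicle level (0.821 to 3.49, from 9 UMIs), and its log2 ratio of 0.94 became 1.12, past the fold, without vehicle 2. Sdc1 was 1.43 times the vehicle level (0.651 to 2.75, from 9 UMIs), and its log2 ratio of 0.61 turned to -0.48 under the strict class rule (3 marker UMIs and none of the other class). Sdc2 was at 0.997 times (0.399 to 2.07), which does not separate it from the vehicle level. Gpc1, Gpc2 and Sdc3 had 1 UMI each in EV 1, and their intervals ran from 0.0110 to 2.49, 0.0117 to 2.64 and 0.0178 to 4.06. Sdc4 was at 0.773 times the vehicle level (0.652 to 0.909), with 148 UMIs. At this depth a change of up to 2-fold in either direction was not detectable for the 3 members with 1 UMI.

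**Figure D4:**
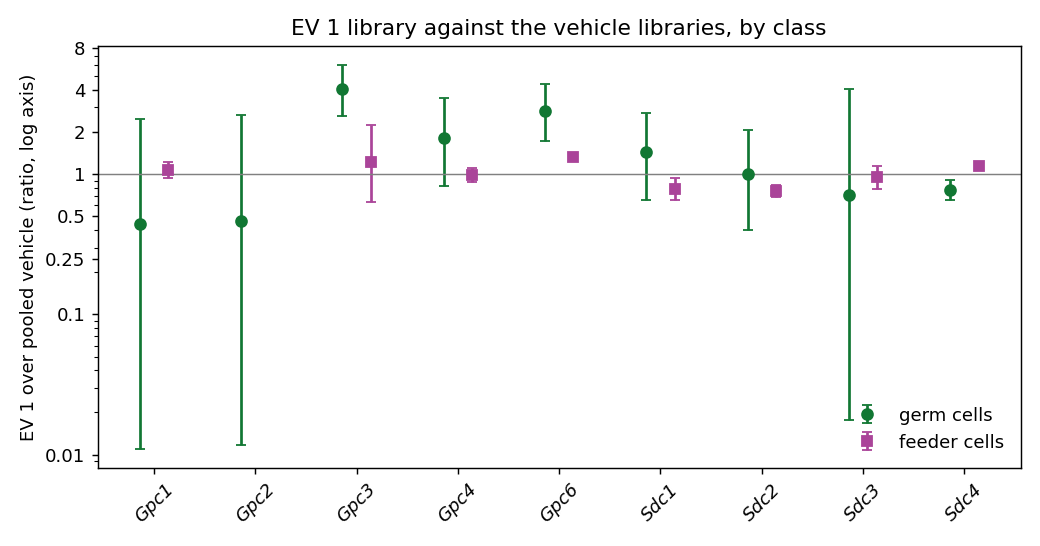
Ratio of the EV 1 level to the pooled vehicle level for each member, on a log axis, in germ cells (circles) and feeder cells (squares), with 95% exact conditional intervals. Gpc2 in feeder cells is left out because it had 1 UMI in all. In germ cells the intervals of Gpc3 and Gpc6 lie wholly above 1. Gpc3 was chosen for this value, so its place is no test. Without each library's top cell the Gpc6 interval is 0.983 to 3.22.

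In feeder cells no member was past the fold, while among 12875 genes 2.41% were past the fold and higher and 4.75% lower. Gpc6 stood at 1.34 times the vehicle level in EV 1 (1.28 to 1.39) and Sdc4 at 1.15 times (1.10 to 1.21). Sdc2 stood at 0.757 times (0.684 to 0.836) and Sdc1 at 0.791 times (0.658 to 0.945). The intervals of Gpc1 (0.939 to 1.22), Gpc4 (0.887 to 1.11), Sdc3 (0.786 to 1.15) and Gpc3 (0.639 to 2.24) included 1. The Gpc3 ratio in feeder cells rested on 16 UMIs in EV 1, against 148 to 3160 UMIs for the other members but Gpc2.

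Feeder cells of EV 1 also differed in Mt1 and Mt2, genes of metal-binding metallothioneins. The share of feeder cells at or above the pooled median of their sum was 37.5%, 36.3% and 75.3% in vehicle 1, vehicle 2 and EV 1. Below that median, Gpc6 had 380, 412 and 988 CPM. At or above it, Gpc6 had 259, 268 and 318 CPM. The gap between EV 1 and the vehicle libraries was thus wider among cells low in Mt1 and Mt2, where the log2 ratio was 1.32 and Gpc6 was past the fold and higher with 8.62% of 11754 genes, than among the others (0.27). Sdc4 ran the other way within each library, with 288, 307 and 252 CPM below the median and 408, 418 and 432 CPM above it. Its EV 1 value lay below both vehicle libraries in the first set and above both in the second. Cells that met neither rule had 321, 356 and 787 CPM of Gpc6 and 412, 410 and 288 CPM of Sdc4.

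The third question was whether the members followed proliferation. Germ cells with a UMI of Mki67 or Top2a, genes of dividing cells, made up 67.3%, 69.0% and 45.1% of germ cells in vehicle 1, vehicle 2 and EV 1. They were also deeper than the others (medians of 2191, 2369.5 and 1538.5 against 1548, 1638.5 and 1145.5 UMIs). In edgeR's quasi-likelihood test with the library as a block, 1 member was called lower in these cells (Sdc4) and 0 higher. The background was 8.33% lower and 9.94% higher of 12309 genes.

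Sdc4 had 551 and 575 CPM in the cycling cells of vehicle 1 and vehicle 2, and 642 and 701 CPM in their other germ cells. In EV 1 the order was the reverse, with 535 CPM in cycling cells (91 UMIs) and 369 CPM in the others (57 UMIs). The log2 fold over the 3 libraries was -0.25 ± 0.04 (adjusted p = 1.69e-09). The call was lost without the block (-0.16, adjusted p = 0.541), in DESeq2 (-0.12, adjusted p = 0.960), without vehicle 1 (-0.17, adjusted p = 0.573) and without vehicle 2 (-0.13, adjusted p = 0.777). Over all alternatives the adjusted p ran from 2.05e-11 to 0.960.

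Gpc3 ran the opposite way in the vehicle libraries. It had 19.7 and 22.7 CPM in cycling cells and 13.1 and 16.8 CPM in the others. In EV 1 the cycling cells had 35.3 CPM (6 UMIs, interval 12.9 to 76.8) and the others 130 CPM (20 UMIs, 79.2 to 200.1). Gpc3 was not called over the 3 libraries (log2 fold 0.28 ± 0.18, adjusted p = 0.304) and was called higher in cycling cells with the vehicle libraries alone (0.49 ± 0.18, adjusted p = 0.0372). Over all alternatives its adjusted p ran from 0.0372 to 0.9995. Set against the vehicle mean, the EV 1 level had a log2 ratio of 0.84 in cycling cells, where Gpc3 was not past the fold, and of 3.13 in the others, where it was past the fold. Gpc4 (from 4 UMIs in EV 1, interval 7.06 to 66.4 CPM) and Gpc6 (from 16 UMIs, 8 of them in 1 cell) were past the fold there too, beside 8.83% of 9648 genes with at least 50 UMIs. Gpc6 had 23.1, 25.3 and 29.4 CPM in cycling cells and 12.3, 23.4 and 104 CPM in the others.

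**Figure D5:**
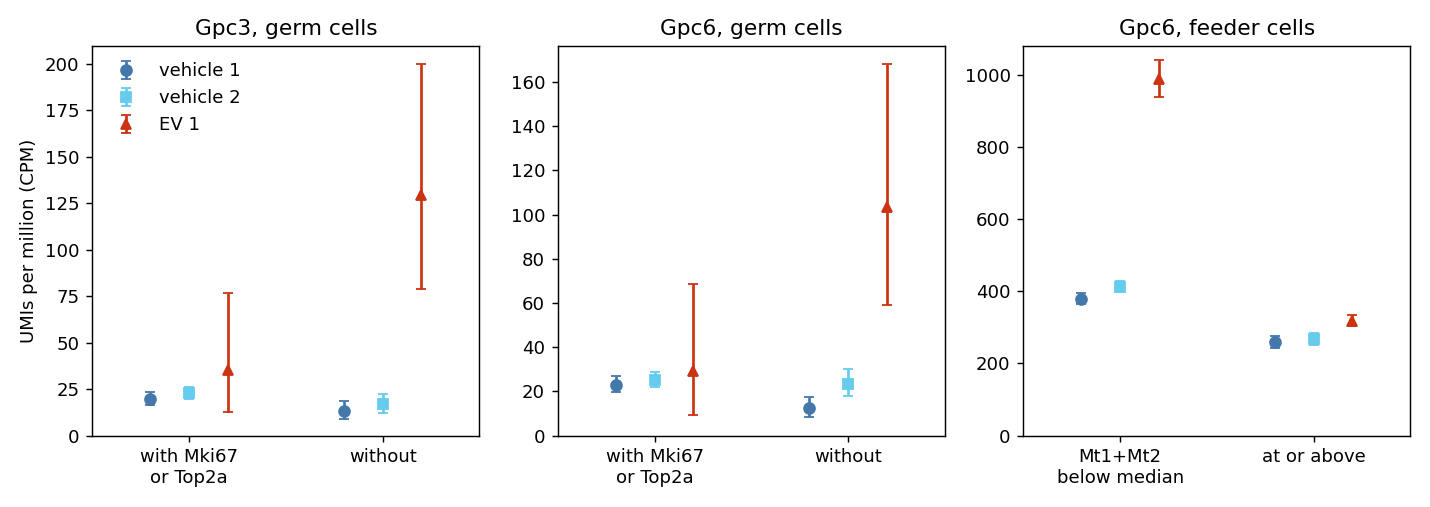
Levels in CPM of Gpc3 and Gpc6 in germ cells with and without Mki67 or Top2a (left and middle), and of Gpc6 in feeder cells below or at and above the median of Mt1 plus Mt2 (right), by library, with 95% exact Poisson intervals. The EV 1 value of Gpc3 is 35.3 CPM in cycling germ cells and 130 CPM in the others.

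No other member was called in this test. Gpc4 had a log2 fold of 0.48 ± 0.21 (adjusted p = 0.111) and Gpc2 of -0.58 ± 0.30 (adjusted p = 0.177). The values of Gpc1, Gpc6, Sdc1, Sdc2 and Sdc3 ranged from -0.43 to 0.27, with adjusted p from 0.292 to 0.739.

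The last group of results concerned genes that build, cut or use the heparan sulfate of these proteins, in germ against feeder cells. All counts that follow are calls of the edgeR test described above, against the same background of 40% higher and 41.6% lower. Of 14 tested genes for linker and chain synthesis, 1 was called higher in germ cells, the chain-starting enzyme Xylt1 (log2 fold 0.30 ± 0.11, adjusted p = 0.0184). Another 9 were called lower, led by Ugdh (-3.28 ± 0.16), which makes the glucuronate donor, and Slc35b2 (-1.73 ± 0.10), which carries the sulfate donor into the Golgi. The median of this list was -1.30, against -0.03 for all genes tested.

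Sulfation enzymes were called in both directions, 3-O-sulfotransferases among them. Of 13 tested, 4 were called higher, led by the 3-O-sulfotransferases Hs3st3a1 (5.21 ± 0.27) and Hs3st6 (4.18 ± 0.37). The 7 called lower were led by Hs6st3 (-4.23 ± 0.13), a 6-O-sulfotransferase, and by another 3-O-sulfotransferase, Hs3st1 (-3.62 ± 0.30). Hs3st3a1 had 21.0, 23.1 and 30.8 CPM in germ cells of vehicle 1, vehicle 2 and EV 1, and at most 0.650 CPM in feeder cells. Among 11 tested genes of remodelling and shedding, Sulf1, which removes 6-O-sulfates outside the cell, was called higher in germ cells (2.66 ± 0.38), as was Hpse2 (1.92 ± 0.24), a heparanase relative without enzyme activity. The 8 called lower included the matrix proteases Mmp2 (-3.69 ± 0.15) and Mmp14 (-3.56 ± 0.12).

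Of 8 tested genes on the list of other heparan sulfate carriers, 1 was called higher, the basement membrane collagen Col18a1 (2.94 ± 0.15). The other 7 were called lower, led by Nrp2 (-4.95 ± 0.19) and Tgfbr3 (-4.42 ± 0.18), co-receptors for semaphorins and for TGF-beta. Whether each of these proteins carries the chain in these cells was not measured. Of 7 cytoplasmic partners, Tiam1 (1.44 ± 0.10), an activator of Rac, and Gipc1 (0.36 ± 0.09), a PDZ adaptor, were called higher. The other 5 were called lower, led by the membrane linker Ezr (-2.70 ± 0.16) and the scaffold Cask (-2.68 ± 0.17).

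Ligands that bind heparan sulfate were mostly feeder transcripts, with 12 of 14 tested called lower in germ cells. They were led by Ptn (-5.20 ± 0.18) and Fgf7 (-5.10 ± 0.18), growth factors made by mesenchymal cells. Mdk (4.32 ± 0.19), a relative of Ptn, and Pdgfb (3.71 ± 0.16) were called higher. Mdk had 41.6, 41.3 and 52.4 CPM in germ cells and at most 2.21 CPM in feeder cells. Ptn had 165, 184 and 48.8 CPM in feeder cells and at most 9.25 CPM in germ cells. Of 18 receptors, 5 were called higher, led by Ret (5.49 ± 0.17) and Gfra1 (4.54 ± 0.14), the GDNF receptors, and 10 lower, led by Pdgfra (-4.85 ± 0.16) and Pdgfrb (-4.02 ± 0.25). Each of the values named had an edgeR adjusted p of at most 0.0184.

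In EV 1 against vehicle germ cells, the lists held few UMIs per gene. Of 8 other carriers with at least 50 UMIs, 6 were past the fold and higher (Gpc5, Hspg2, Agrn, Cd44, Nrp1 and Nrp2) and 0 lower, beside a background of 11.5%. Only the intervals of Agrn (1.09 to 4.68, from 9 UMIs) and Cd44 (1.76 to 6.18) lay above 1. Gpc5, Hspg2, Nrp1 and Nrp2 had 4, 6, 4 and 6 UMIs in EV 1, with intervals that included 1. Under TMM scaling Cd44 alone of the 8 was past the fold. Cd44, an adhesion receptor with 12 UMIs in EV 1, had 12.9, 8.77 and 37.0 CPM in germ cells and 176, 186 and 196 CPM in feeder cells. All 6 were called lower in germ than in feeder cells. The summed fibroblast (mainly Fn1), Sertoli, endothelial and macrophage markers of germ cells stood higher in EV 1 as well, and their part was not tested. Gfra1 was past the fold and lower in germ cells of EV 1, at 205, 217 and 98.6 CPM in vehicle 1, vehicle 2 and EV 1 (0.466 times, interval 0.319 to 0.659). Ndst3, Hs6st3, Sulf2, Hpse, Hpse2, Timp3, Fgf2, Fgf7, Vegfa, Fgfr4 and Alk were past the fold and higher on 2 to 15 UMIs each. Only the intervals of Timp3 (1.20 to 4.42), Fgf7 (1.08 to 8.22) and Vegfa (1.32 to 3.96) lay above 1, and the others included it. Hpse, Fgf2, Fgf7 and Alk were past the fold under TMM scaling as well. Ndst2, Notum, Mmp2, Mmp9, Fgfr3, Kdr and Fzd7 were past the fold and lower on at most 1 UMI each. Each of their intervals included 1 (Ndst2 0 to 2.74, Fzd7 0.00547 to 1.22), so unlike Gfra1 they were not separated from the vehicle level. They and Gfra1 stayed past the fold under TMM scaling, which is no check, because it shifted the median germ ratio by -0.38. No gene of the linker list or of the cytoplasmic partners was past the fold in either class. TMM scaling put 2 linker genes (Extl1 and Extl2) and 1 partner (Pdcd6ip) past the fold and lower in germ cells, and of the other heparan sulfate lists Ndst1, Pdgfb and Fgfr1. Of the 6 germ cell markers not used by the split, it put 3 past the fold and lower (Dnd1, Sall4 and Tdrd5) and 0 higher. Without TMM scaling none of these 6 was past the fold.

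In feeder cells, Hbegf, a heparin-binding ligand of the EGF receptor, had 65.2, 63.9 and 303 CPM in vehicle 1, vehicle 2 and EV 1, or 4.70 times the vehicle level (4.38 to 5.04). Fzd7, a Wnt receptor, was past the fold and higher as well (2.00 times, 1.62 to 2.47). Past the fold and lower were Ptn (0.279 times, 0.248 to 0.312), Timp3 (0.394 times, 0.351 to 0.441), Pdgfrb (0.374 times), Hgf (0.400 times), Mmp9 (0.190 times) and Notum (0.226 times). Gfra1, a germ cell transcript, was also past the fold and lower in feeder cells (0.472 times, 0.287 to 0.744), but not under TMM scaling. The 6 germ cell markers not used by the split moved with it there, at 16.1, 13.3 and 3.53 CPM in sum in feeder cells of vehicle 1, vehicle 2 and EV 1, and their part in the Gfra1 value was not tested. No member was among these genes.

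Finally, the genes whose pattern over the 6 sums of library and class was most like that of Gpc3 were sought by Pearson's r of log2(CPM + 1), among 15656 other genes with at least 50 UMIs. They were Vps39 (r = 0.9994), BB557941 (r = 0.9988) and Bdh1 (r = 0.9986). The 6 sums share libraries and their totals, so this is a description only. The EV 1 germ levels of BB557941 and Bdh1 came from 1 and 4 UMIs. BB557941 had 1.90, 1.99 and 3.08 CPM in germ cells and 0.650 to 0.883 CPM in feeder cells. Bdh1 had 3.81, 4.97 and 12.3 CPM in germ cells of vehicle 1, vehicle 2 and EV 1 and at most 0.421 CPM in feeder cells. Vps39 had 18.9, 19.6 and 24.7 CPM in germ cells and 13.0 to 13.7 CPM in feeder cells, so its range was far narrower than that of Gpc3.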

How the data were processed

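Counts of vehicle 1, vehicle 2 and EV 1 were analysed. The authors deposited UMI counts for each barcode, neither normalized nor filtered by cell type, made with Cell Ranger 7.0.1 on mm10 with the GENCODE vM23 annotation. Whether intron reads were counted is not given in the sources used here. Barcodes were kept if they had more than 400 but fewer than 4000 genes, with mitochondrial UMIs below 10%, and Scrublet doublets (scanpy 1.11.5) were removed at 0.8% per 1000 cells. A cell was a germ cell with at least 2 UMIs of the 4 germ cell genes and more of them than of the 4 fibroblast genes, and a feeder cell in the reverse case. Sums per library and class were tested with edgeR 4.0.16 (TMM, filterByExpr, library as block, called at an adjusted p under 0.05), after the test was checked on simulated data. DESeq2 1.42.0 was an alternative, as were other filters, scalings and class rules, subsets of cells and each library left out. Leaving out the cell with the most UMIs of a member was chosen after seeing the data. The block comes from the design, since both classes of a library share 1 culture and run. For EV 1 against vehicle, which had no test, 0.5 UMI was added to each sum. Ratios carry exact conditional intervals. The chi-square per degree of freedom between the vehicle libraries was 2.31 in germ and 2.28 in feeder cells, so they were not copies. Between EV 1 and vehicle 1 or vehicle 2 it was 21.9 and 22.1 in feeder cells. In germ cells, where EV 1 held few UMIs, it was 2.72 and 2.85. The members and gene lists were chosen with earlier results of these data known. Named genes were the members, the 2 called genes at each end of each list, list genes past the fold and the 3 genes most like Gpc3. Markers of Sertoli, Leydig, peritubular myoid and endothelial cells and macrophages summed to 38.9 to 83.2, 6.16 to 7.32, 12.0 to 14.3, 18.4 to 27.7 and 6.56 to 18.5 CPM in germ cells, and Sertoli markers, mainly Sox9, to 434 to 463 CPM in feeder cells.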

Additional observations from a re-analysis of the deposited data

Results flagged for a closer look

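Members whose values lay in opposite directions in the groups compared are listed, and none of these differences was tested. EV 1 lay above both vehicle libraries in one class and below both in the other for Gpc1 (log2 ratio -0.60 in germ cells, from 1 UMI, and 0.10 in feeder cells), Sdc1 (0.61, from 9 UMIs, and -0.34) and Sdc4 (-0.36 and 0.21). The ratio intervals of Gpc1 in germ cells (0.0110 to 2.49) and feeder cells (0.939 to 1.22) and of Sdc1 in germ cells (0.651 to 2.75) included 1. Opposite changes are thus not shown for Gpc1 and Sdc1. Within EV 1, cycling germ cells differed from the others in the direction opposite to both vehicle libraries for Gpc3 (log2 ratio -1.80, against 0.57 and 0.42, from 6 and 20 UMIs in EV 1), Gpc6 (-1.73, against 0.89 and 0.10, from 5 and 16 UMIs in EV 1, of which 8 lay in 1 cell) and Sdc4 (0.53, against -0.22 and -0.28). The ratio of germ to feeder cells was opposite for Sdc1 (0.36 in EV 1, against -0.75 and -0.44 in the vehicle libraries). The Sdc1 value rests on 9 UMIs in germ cells of EV 1. The share of cells with a UMI, each thinned to 1000 UMIs, was 1 of 178 germ cells there (0.562%, Wilson interval 0.0992 to 3.11) and 1.89% of feeder cells, which does not give a direction.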

How the results depend on the processing

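Germ against feeder cells: the strict class rule (3 marker UMIs and none of the other class) left 1 member called higher, because Gpc2 fell below the filter on low counts. With 1 library left out, 2 to 3 members were called higher and 5 to 6 lower, and 4350 to 7067 genes higher and 4969 to 7076 lower. Sdc4 ran from -0.021 (without vehicle 2; -0.015 without vehicle 1) to 0.40 (without EV 1). Without the replicate block, 2 members were called higher and 6 lower. Cycling against other germ cells: the numbers of genes called higher and lower (1224 and 1025) were 587 and 356 without the replicate block and 173 and 69 by DESeq2. They ran from 121 to 1372 and from 34 to 1170 with 1 library left out, and 678 were lower with no filter. Members called lower fell to 0 without the block and by DESeq2. With 1 library left out, 0 to 1 member was called higher and 0 to 1 lower. Gpc3 turned to -0.051 by DESeq2 and -0.059 without vehicle 1, Gpc6 to -0.014, -0.21 and, with doublets kept, -0.091, and Sdc1 to -0.0067 without vehicle 1. Their highest values with 1 library left out were 0.49, 0.41 and 0.40. No paired analysis was possible for EV 1 against vehicle because the arms shared 1 replicate number with counts.

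EV 1 against vehicle in germ cells: genes past the fold, higher and lower, numbered 767 and 1807 with TMM and 400 and 424 at 200 UMIs or more, and 852 were higher among cells without Mki67 or Top2a. Members past the fold and higher fell to 0 in cycling cells and, chosen after seeing the data, to 1 without each library's top cell. Members lower were 1 with 0.1 UMI added, 2 under the strict rule, 2 in cycling cells and 3 without the top cell, all with 0 or 1 UMI in EV 1. In feeder cells, genes higher and lower numbered 137 and 274 at 200 UMIs, 1013 were higher in cells low in Mt1 and Mt2 (with 1 member, Gpc6), and 172 higher and 267 lower in the others. With 1 vehicle library left out, 2 to 3 members were higher in germ cells, the third being Gpc4. The Gpc3 share of EV 1 germ cells (10.7%) was 10.2% unthinned and 7.69% at 2000 UMIs, where 26 cells remained. The germ cells of EV 1 held 324434 UMIs, which limits every germ cell value of that library.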
